A study of Mus musculus with 8 samples.

Results

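Cytochrome P450 genes beyond Cyp1a1 and Cyp1b1 were read out of RNA sequencing libraries of mouse CD4 T cells, together with the genes of 2 reductases, Por and Cyb5r3. Members were the protein-coding rows of the deposited gene table whose symbol starts with Cyp and a digit, plus Por and Cyb5r3, without Cyp1a1, Cyp1b1 and Cyp51. That gave 99 genes, 97 of them P450s, among 54532 rows, 22046 of which were protein-coding. Cyp1a2 stayed in by this choice.

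The study sequenced polyadenylated RNA from CD4 T cells of mouse spleen, a primary cell preparation, after 2 days in culture conditions for pathogenic Th17 cells, helper cells that make interleukin-17 and take part in autoimmune disease. There were 4 libraries labelled Cyp1b1 knockout and 4 labelled wild type, and all 8 had the same differentiation treatment. The series title asks what cytochrome P450 1B1 does for these cells, their redox balance and their mitochondria. The labels give no strain, age, sex, allele or number of animals. Nor do they tie replicates to separate mice or cultures, and p-values therefore reflect the spread among these 8 libraries alone, some or all of which may be technical.

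Cytochrome P450s are heme enzymes that insert an oxygen atom into lipids, steroids, vitamins and foreign compounds. Those of the endoplasmic reticulum take electrons from NADPH through the reductase Por, some with help from cytochrome b5 and its NADH-dependent reductase Cyb5r3, and those of mitochondria take them from adrenodoxin (Fdx1) and its reductase (Fdxr). Most families of drug metabolism are expressed mainly in liver, while a few P450s act on sterols, fatty acids, retinoids and vitamin D in many tissues.

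Total counts ran from 13271968 to 15667313 in the libraries labelled knockout and from 8918342 to 14335944 in those labelled wild type. Cyp1b1, which is no member, went against the labels: it stood at 184.8 ± 47.9 counts scaled to a library of 1000000 (CPM) in the libraries labelled knockout and 4.36 ± 0.432 CPM in those labelled wild type (SD, n = 4 each), 42.4-fold higher under the knockout label. An exact two-sided permutation test over 70 assignments gave p = 0.0286, the smallest that 4 against 4 libraries allow. Counts per gene do not show which exons were read. Every direction below therefore runs between labels, from libraries labelled knockout against libraries labelled wild type. T cell genes were abundant, with 8 markers of CD4 T cells summing to 3280 to 3365 CPM in the libraries labelled knockout and 3013 to 3193 CPM in those labelled wild type. Markers of other cells moved between labels too, and their part in the results below was not tested. All 10 B cell markers were lower under the knockout label, with a sum of 131.6 to 151.5 CPM there and 216.7 to 308.3 CPM under the wild type label. Of 8 dendritic cell markers, 4 were tested, of which 2 were higher (Ccr7 and Batf3) and 2 lower (Flt3 and Zbtb46), with Cd209a and Clec9a at 0. Their sum was 700.8 to 768.9 CPM under the knockout label and 601.5 to 636.1 CPM under the wild type label. Most of it was Ccr7, at 667.1 CPM under the knockout label and 542.5 CPM under the wild type label. Flt3 had 11.3 and 23.9 CPM and Zbtb46 2.64 and 4.78 CPM, in the same order of labels. NK cell markers summed to 7.28 to 12.3 CPM under the knockout label and 15.9 to 17.05 CPM under the wild type label, mostly Gzma, which was lower and was the only one of 2 tested, from a list of 6, to pass. Erythroid markers summed to 3.31 to 4.77 CPM under the knockout label and 1.53 to 2.53 CPM under the wild type label, with Hba-a1 higher and Hbb-bs not passing, the 2 tested of 6. In a bulk sample, fewer cells of a type and less RNA per cell cannot be told apart.

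Most P450 genes were read too little to be tested in these cells. A gene was called silent with 0 counts in all 8 libraries, trace with at least 1 count but too few to be tested, and expressed when it passed the filter for testing, which asks for about 0.703 CPM in at least 4 libraries and 15 counts in total. Of the 99 members, 15 were expressed (15.2%), 38 were trace (38.4%) and 46 were silent (46.5%). Among all protein-coding rows, 54.0% were expressed, 25.7% were trace and 20.3% were silent. A count of 0 allows up to 3 counts, or 0.191 to 0.226 CPM in a library labelled knockout and 0.209 to 0.336 CPM in one labelled wild type. This limit covers counting error only.

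The families of drug metabolism were mostly silent. In the CYP2 family, 5 of 49 genes were expressed, 13 were trace and 31 were silent. All of Cyp2a4, Cyp2a5 and Cyp2a12 of the CYP2A genes had no count, as did Cyp2b10, Cyp2b13, Cyp2b19 and Cyp2b23 of the CYP2B genes. The CYP2C genes, which include epoxygenases of arachidonic acid, had 11 silent members of 15, namely Cyp2c29, Cyp2c37, Cyp2c38, Cyp2c39, Cyp2c40, Cyp2c50, Cyp2c54, Cyp2c65, Cyp2c67, Cyp2c68 and Cyp2c69. Of the 8 CYP2D genes, Cyp2d10, Cyp2d12, Cyp2d34 and Cyp2d40 were silent and Cyp2d22 was expressed. Of the 8 CYP2J genes, Cyp2j5, Cyp2j6, Cyp2j7, Cyp2j8, Cyp2j11 and Cyp2j12 were silent. Cyp2e1, the ethanol-oxidising P450 of liver, and Cyp2g1 and Cyp2w1 had no count in any library.

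The CYP3 family, which holds the main drug-oxidising P450s of liver, had no expressed member. Cyp3a16, Cyp3a25, Cyp3a41a, Cyp3a41b, Cyp3a44, Cyp3a57 and Cyp3a59 were silent, and Cyp3a11 and Cyp3a13 were trace. In the CYP4 family of fatty acid hydroxylases, 5 of 20 genes were expressed and 6 were silent, the silent ones being Cyp4a10, Cyp4a12a, Cyp4a12b, Cyp4a30b, Cyp4b1 and Cyp4f37. Of the other 19 P450s, 3 were expressed and only Cyp8b1, the 12-alpha-hydroxylase of bile acid synthesis, and Cyp11b2, the aldosterone synthase, were silent. The liver nuclear receptor Nr1i2, which induces CYP3A and CYP2B genes, was silent as well, while the regulators Nr1i3, Hnf4a and Ppara had 4, 5 and 10 counts over 8 libraries. Hepatocyte markers summed to 0.555 to 1.91 CPM under the knockout label and 2.54 to 2.79 CPM under the wild type label, with Fgb, Serpina1a and Ttr at 0 in all 8 libraries. Most of that sum was Apoa2, the only one of 8 that could be tested, at 1.22 CPM under the knockout label and 2.37 CPM under the wild type label.

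**Figure D1:**
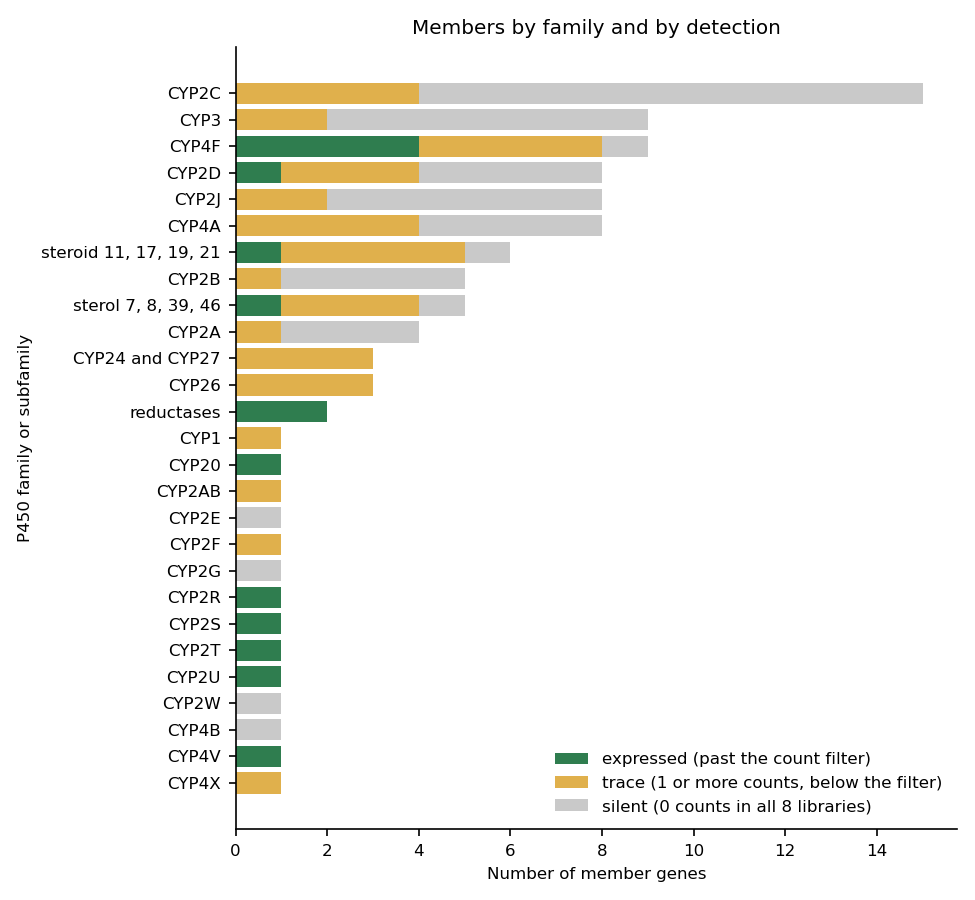
Number of member genes (x axis) in each P450 family or subfamily and for the 2 reductases (y axis), split into expressed, trace and silent genes over all 8 libraries. CYP2C holds the most silent genes, 11 of 15, and CYP4F the most expressed ones, 4 of 9.

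The 15 expressed members were the reductases Por and Cyb5r3 and 13 P450s. By subfamily these were Cyp2d22, Cyp2r1, Cyp2s1, Cyp2t4 and Cyp2u1, the CYP4 genes Cyp4f13, Cyp4f16, Cyp4f17, Cyp4f39 and Cyp4v3, and Cyp11a1, Cyp20a1 and Cyp39a1. In 12 of them every library was past the filter's level. The exceptions were Cyp4f39 (past it in 4 libraries labelled knockout and 2 labelled wild type), Cyp2u1 (1 labelled knockout and 4 labelled wild type) and Cyp2t4 (3 labelled knockout and 1 labelled wild type). A filter passed mostly through 1 label favours genes that differ between labels, so no count over the expressed members is read as support.

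Levels of different genes were set side by side per length, as length-corrected levels that sum to 1000000 per library (TPM), made from the counts and the deposited gene lengths. Por was highest, at 56.9 ± 5.39 TPM in the libraries labelled knockout and 57.1 ± 3.23 TPM in those labelled wild type (SD, n = 4 each). Next came Cyb5r3 at 53.7 ± 5.91 TPM under the knockout label and 36.6 ± 0.706 TPM under the wild type label. No P450 in this set reached the level of either reductase.

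Cyp51 and Cyp1b1, left out of the set, had means of 172.3 and 57.3 TPM over all 8 libraries. Within the set, the highest P450 over all 8 libraries was Cyp20a1, an orphan P450 with no settled substrate. It stood at 23.7 ± 2.24 TPM in libraries labelled knockout and 24.7 ± 0.905 TPM in those labelled wild type. After it came Cyp4f13 (19.7 ± 1.20 TPM under the knockout label, 25.3 ± 0.978 TPM under the wild type label), Cyp2s1 (24.8 ± 5.71 and 19.1 ± 1.67 TPM under the same labels) and Cyp11a1 (23.97 ± 1.81 TPM knockout, 12.3 ± 2.81 TPM wild type). Under the knockout label Cyp2s1 and Cyp11a1 had the highest means and Cyp20a1 lay within their spread, while under the wild type label Cyp4f13 and Cyp20a1 stood above Cyp2s1 and Cyp11a1.

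Lower means over all 8 libraries were those of Cyp4f16, Cyp4f17, Cyp4v3 and Cyp2d22, although under the wild type label Cyp4f16 was above Cyp11a1. Cyp4f16 had 13.1 ± 0.498 TPM in libraries labelled knockout and 15.6 ± 3.08 TPM in those labelled wild type, Cyp4f17 had 10.6 ± 2.73 and 11.6 ± 2.24 TPM, Cyp4v3 had 8.79 ± 0.617 and 7.48 ± 0.815 TPM, and Cyp2d22 had 5.21 ± 1.02 and 8.40 ± 0.361 TPM, in the same order of labels. Cyp4v3 is the mouse counterpart of human CYP4V2, a fatty acid hydroxylase mutated in a retinal dystrophy. The remaining 5, Cyp4f39, Cyp39a1, Cyp2r1, Cyp2t4 and Cyp2u1, lay below 4 TPM on average under both labels, down to 0.370 ± 0.0940 TPM under the knockout label and 1.00 ± 0.525 TPM under the wild type label for Cyp2u1. The trace gene Cyp4f18, at 1.06 TPM over all 8 libraries, was above Cyp2u1 at 0.687 TPM, since the filter works on counts and not on counts per length.

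**Figure D2:**
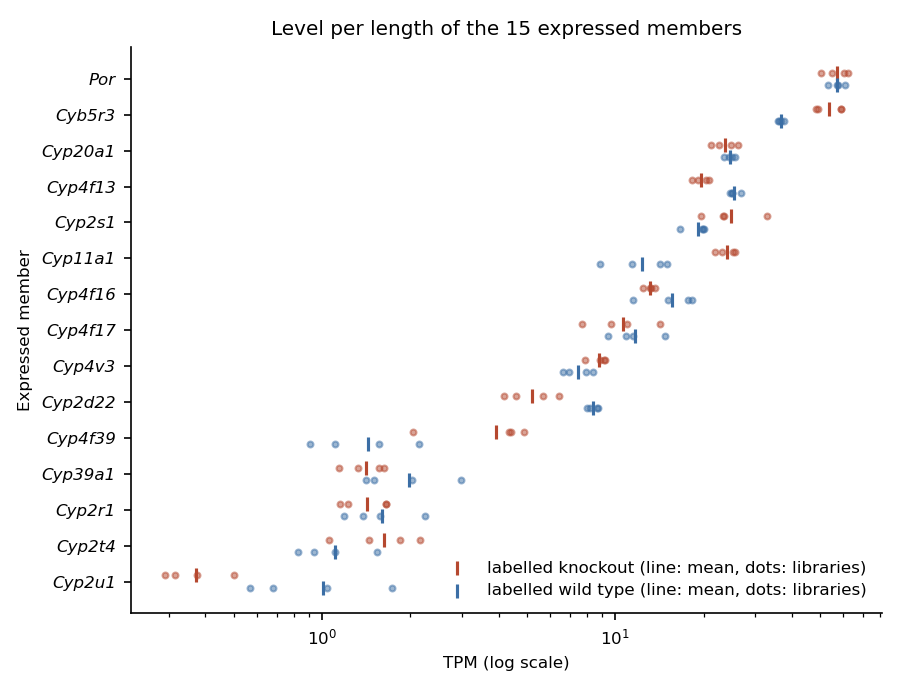
TPM on a log scale (x axis) of the 15 expressed members (y axis, ordered by mean over 8 libraries), with 1 dot per library and a line at each label's mean. Por is at 56.9 TPM under the knockout label and 57.1 TPM under the wild type label, and the means of Cyp11a1 stand apart, at 23.97 TPM under the knockout label and 12.3 TPM under the wild type label.

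The 13 expressed P450s and the trace genes of the set were summed, without Cyp1a1, Cyp1b1 and Cyp51. Their mRNA came to 133.9, 137.5, 149.6 and 147.5 TPM in knockout replicates 1 to 4 and to 141.6, 137.2, 136.7 and 134.1 TPM in wild type replicates 1 to 4. These sums overlapped between labels, but they are not all P450 mRNA. Cyp1b1, left out of them, stood at 184.8 CPM under the knockout label and 4.36 CPM under the wild type label. CPM are not corrected for length and cannot be set against these sums. In TPM, Cyp1b1 had a mean of 57.3 over all 8 libraries. Within the set the make-up differed: Cyp11a1 was 16.3 to 17.4% of the set's sum in the libraries labelled knockout and 6.45 to 10.98% in those labelled wild type. Together, Cyp11a1 and Cyp2s1 were 31.0 to 38.9% under the knockout label and 20.8 to 25.6% under the wild type label.

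Between labels, 7 of the 15 expressed members passed the test (46.7%) and 8 did not, beside 30.4% of all 14428 genes tested. The test was edgeR's quasi-likelihood F-test, with p adjusted by Benjamini-Hochberg over all 14428 genes and a threshold of 0.05. Cyp11a1, Cyb5r3, Cyp2s1 and Cyp4f39 were higher under the knockout label, where 15.7% of all genes were, and Cyp2d22, Cyp4f13 and Cyp2u1 were lower, where 14.6% of all genes were. The median log2 fold change was 0.010 over the 15 members, -0.075 over the 13 P450s and -0.00099 over all genes tested. The CPM of the libraries did not overlap between labels for 7 members, against 29.2% of all genes tested. These were Cyp11a1, Cyb5r3, Cyp2s1 and Cyp4v3, higher in every library labelled knockout, and Cyp2d22, Cyp4f13 and Cyp2u1, lower in every one.

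**Figure D3:**
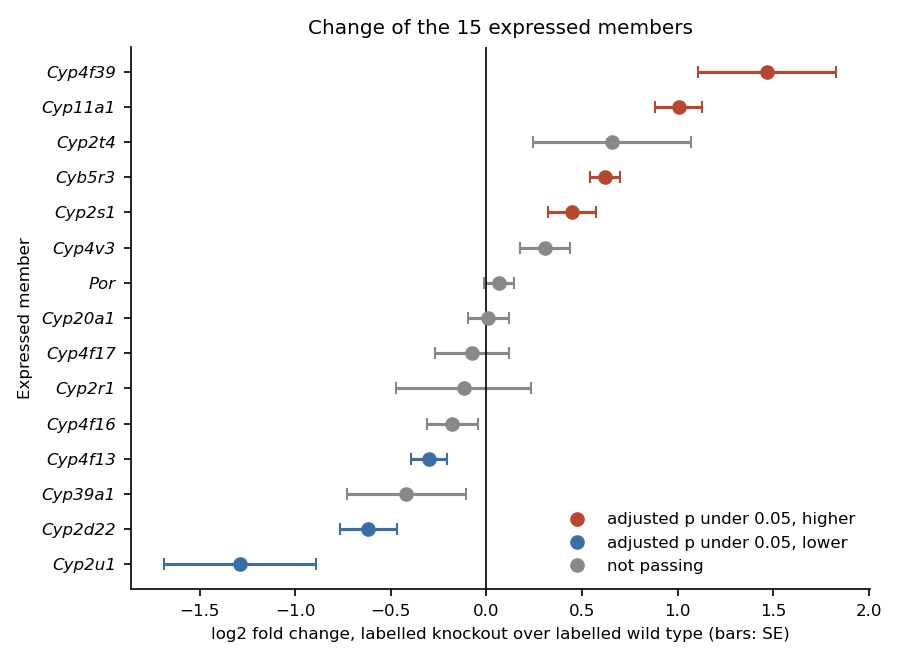
The log2 fold change of libraries labelled knockout over libraries labelled wild type (x axis; bars are standard errors) for the 15 expressed members (y axis), coloured by whether the edgeR adjusted p was under 0.05. Cyp4f39 and Cyp11a1 lie farthest to the right, at 1.47 and 1.01, and Cyp2u1 farthest to the left, at -1.29.

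Cyp11a1 (ENSMUSG00000032323, GRCm38 chr9:58006411-58027023, plus strand) encodes the mitochondrial enzyme that cuts the side chain of cholesterol to give pregnenolone, the first step of steroid synthesis. The gene has been described in activated mouse type 2 helper T cells. It had 34.2, 35.3, 39.5 and 39.5 CPM in knockout replicates 1 to 4 and 21.2, 12.9, 22.2 and 16.9 CPM in wild type replicates 1 to 4. All 4 libraries labelled knockout were above all 4 labelled wild type, and the spread was wider under the wild type label. That made a log2 fold change of 1.01 (SE 0.12), with an edgeR adjusted p of 1.84e-06.

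Neither of the mitochondrial electron donors passed the test with it. Fdx1 had a log2 fold change of -0.20 (edgeR adjusted p = 0.155) and Fdxr one of 0.057 (edgeR adjusted p = 0.669). The other steroidogenic P450s were trace or silent: Cyp17a1, the 17-alpha-hydroxylase, had 14 counts over 8 libraries, Cyp19a1 (aromatase) 6, Cyp11b1 (11-beta-hydroxylase) 3 and Cyp21a1 (21-hydroxylase) 1. Markers of adrenal and gonadal steroid cells summed to 6.31 to 6.58 CPM under the knockout label and 5.62 to 6.94 CPM under the wild type label, with Hsd3b1 and Nr5a1 at 0 in all 8 libraries. Nearly all of that sum was Star, at 6.26 CPM under the knockout label and 6.03 CPM under the wild type label. Star was the only one of 4 that could be tested and did not pass (edgeR adjusted p = 0.850).

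Reads at the Cyp11a1 locus have a neighbour. The long noncoding RNA gene Gm17322 (GRCm38 chr9:57998041-58007451) lies on the same strand and overlaps the Cyp11a1 row by 1041 bases. It had 59, 41, 48 and 56 counts in knockout replicates 1 to 4 and 17, 5, 11 and 20 in wild type replicates 1 to 4, a log2 fold change of 1.82 (edgeR adjusted p = 3.82e-05). Both genes were higher in every library labelled knockout. Counts of the overlapping bases cannot be assigned to either gene from this table, and the 257 counts of Gm17322 over 8 libraries stand beside 3095 of Cyp11a1. No stretch of 75 bases in the longest annotated Cyp11a1 transcript also occurs in a transcript of another gene. Its other transcripts were not searched.

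Start-site sequence was at hand for part of the family. RefSeq's table for GRCm38.p6 held 11 windows for 10 of the 15 expressed members, Cyp11a1 having 2 starts, and the 250 bases before each start were searched on both strands. The motifs, chosen after the values were seen, were GCGTG, the core bound by the aryl hydrocarbon receptor with ARNT, AGGTCA, a hexamer of nuclear receptors, and TGATGNAA, an ATF4 element of amino acid response. GCGTG was in 5 of the 11 windows and in 28.17% of all 32841 promoters of that length, AGGTCA in 2 and in 14.03%, and TGATGNAA in 0 and in 3.45%. The stretches shown are those of P450s that passed the test, in lower case with motif matches in capitals. Annotated untranslated bases were left out, except at the second Cyp11a1 start. The window of that start lay wholly in such bases, and only the 30 bases around its match are shown. The window of Cyp2s1 lay wholly in such bases too and is not shown.
Cyp11a1 first start, chr9:57997774-57998023, plus strand: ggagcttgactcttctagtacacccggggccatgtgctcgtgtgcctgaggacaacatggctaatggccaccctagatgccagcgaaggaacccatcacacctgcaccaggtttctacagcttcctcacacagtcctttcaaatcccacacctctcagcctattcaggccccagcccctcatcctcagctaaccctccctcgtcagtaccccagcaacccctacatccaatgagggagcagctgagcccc
Cyp11a1 second start, chr9:58014912-58014941, plus strand: gaggaaggggggAGGTCAccgctccatcag
Cyp4f39, chr17:32452473-32452722, plus strand: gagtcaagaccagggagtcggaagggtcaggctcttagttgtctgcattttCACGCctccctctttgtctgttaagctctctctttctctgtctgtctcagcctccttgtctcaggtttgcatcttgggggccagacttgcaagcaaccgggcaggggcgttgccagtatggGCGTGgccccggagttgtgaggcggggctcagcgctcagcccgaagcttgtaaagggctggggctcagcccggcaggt
Cyp4f13, chr17:32947403-32947611, minus strand: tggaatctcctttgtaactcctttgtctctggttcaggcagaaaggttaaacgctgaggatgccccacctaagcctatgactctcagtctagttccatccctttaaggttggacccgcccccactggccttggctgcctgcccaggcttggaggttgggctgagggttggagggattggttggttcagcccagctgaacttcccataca

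The capitals mark AGGTCA before the second Cyp11a1 start and GCGTG, in both orientations, before the Cyp4f39 start. The first Cyp11a1 start and the Cyp4f39 start lie upstream of the rows counted for these genes, outside their deposited coordinates. The first Cyp11a1 start lies just before Gm17322, and neither Cyp11a1 window held GCGTG. The window of Cyp2s1 held none of the 3 motifs either, and that of Cyp4f13, which was lower under the knockout label, held none. Por, which did not pass the test, had 3 matches to GCGTG, Cyp20a1 had 2, and Cyp4f16 and Cyp4v3 had 1 each. A match describes letters and not binding, and its absence says only that the letters are not in these bases.

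Cyp2s1 (ENSMUSG00000040703, GRCm38 chr7:25802475-25816913, minus strand) encodes a P450 of epithelia and immune cells that is known to be induced through the aryl hydrocarbon receptor. It had 31.5, 36.8, 53.0 and 37.1 CPM in knockout replicates 1 to 4 and 30.7, 29.5, 30.3 and 25.4 CPM in wild type replicates 1 to 4. Every library labelled knockout was above every library labelled wild type in CPM, knockout replicate 3 by far and knockout replicate 1 barely. In TPM, where libraries are scaled otherwise than for CPM, the labels overlapped. There, knockout replicate 1 had 19.6 TPM and wild type replicate 1 had 20.1 TPM, so the separation in CPM rested on the scaling of libraries. The log2 fold change was 0.45 (SE 0.12, edgeR adjusted p = 0.0102), and it was 0.28 without knockout replicate 3 (edgeR adjusted p = 0.0423). Of windows of 75 bases in its longest transcript, 6.03% also occur in the overlapping opposite-strand gene Gm26707, which had 108 counts over 8 libraries and did not pass the test (log2 fold change -0.12, edgeR adjusted p = 0.848).

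Cyp1a1, left out of the set and also induced through the aryl hydrocarbon receptor, was 19.4 ± 1.09 CPM in libraries labelled knockout and 7.17 ± 0.839 CPM in those labelled wild type. Cyp51, left out as well, is the lanosterol demethylase of cholesterol synthesis. It had 243.3 ± 10.02 CPM under the knockout label and 236.0 ± 6.20 CPM under the wild type label and did not pass the test (edgeR adjusted p = 0.619).

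Of the CYP4F genes, known for omega-hydroxylation of fatty acids and leukotrienes, 8 lie side by side on chromosome 17. They ran there in the order Cyp4f39, Cyp4f17, Cyp4f16, Cyp4f37, Cyp4f40, Cyp4f15, Cyp4f14 and Cyp4f13, between 46.8 and 47.2 Mb from Cyp1b1 on the same chromosome. The outermost genes moved in opposite directions: Cyp4f39 was higher under the knockout label and Cyp4f13 was lower. Between them, Cyp4f17 and Cyp4f16 were expressed and did not pass the test, Cyp4f37 was silent, and Cyp4f40, Cyp4f15 and Cyp4f14 had 2, 3 and 4 counts over 8 libraries.

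Cyp4f39 (ENSMUSG00000061126, GRCm38 chr17:32468462-32492479, plus strand) is the mouse counterpart of human CYP4F22, which hydroxylates very long fatty acids for the lipids of the skin barrier. Its counts were low, with 15, 32, 33 and 35 in knockout replicates 1 to 4 and 15, 4, 11 and 8 in wild type replicates 1 to 4. In CPM these were 1.06, 2.22, 2.54 and 2.27 under the knockout label and 1.07, 0.441, 0.766 and 0.550 under the wild type label. The labels overlapped through replicate 1, where the library labelled knockout did not exceed the one labelled wild type. The log2 fold change was 1.47 (SE 0.36), with an edgeR adjusted p of 0.00349.

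Cyp4f13 (ENSMUSG00000024055, GRCm38 chr17:32924688-32947402, minus strand) had 20.7, 19.3, 22.1 and 22.3 CPM in knockout replicates 1 to 4 and 27.7, 25.2, 25.6 and 25.4 CPM in wild type replicates 1 to 4. All libraries labelled knockout were below all labelled wild type, by a small margin. Its log2 fold change was -0.30 (SE 0.093, edgeR adjusted p = 0.0166). The call ended without wild type replicate 1 (-0.27, edgeR adjusted p = 0.0506).

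Cyp4f16 and Cyp4f17 did not pass, with log2 fold changes of -0.18 (SE 0.13, edgeR adjusted p = 0.325) and -0.075 (SE 0.19, edgeR adjusted p = 0.805). Their reads may not be fully their own: 16.1% of the 75-base windows of Cyp4f16 also occur in Cyp4f14, Cyp4f17 or Cyp4f37, and 0.94% of those of Cyp4f17 in Cyp4f16 or Cyp4f37. Cyp4f13 and Cyp4f39 shared no such window with another gene. Cyp4v3, on chromosome 8, had 9.76, 11.2, 10.99 and 11.1 CPM in knockout replicates 1 to 4 and 9.37, 9.69, 8.15 and 7.84 CPM in wild type replicates 1 to 4. Its labels did not overlap in CPM, but the log2 fold change of 0.31 (SE 0.13) did not pass (edgeR adjusted p = 0.0808). In TPM the labels of Cyp4v3 overlapped, with 7.89 TPM in knockout replicate 1 and 8.39 TPM in wild type replicate 2.

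**Figure D4:**
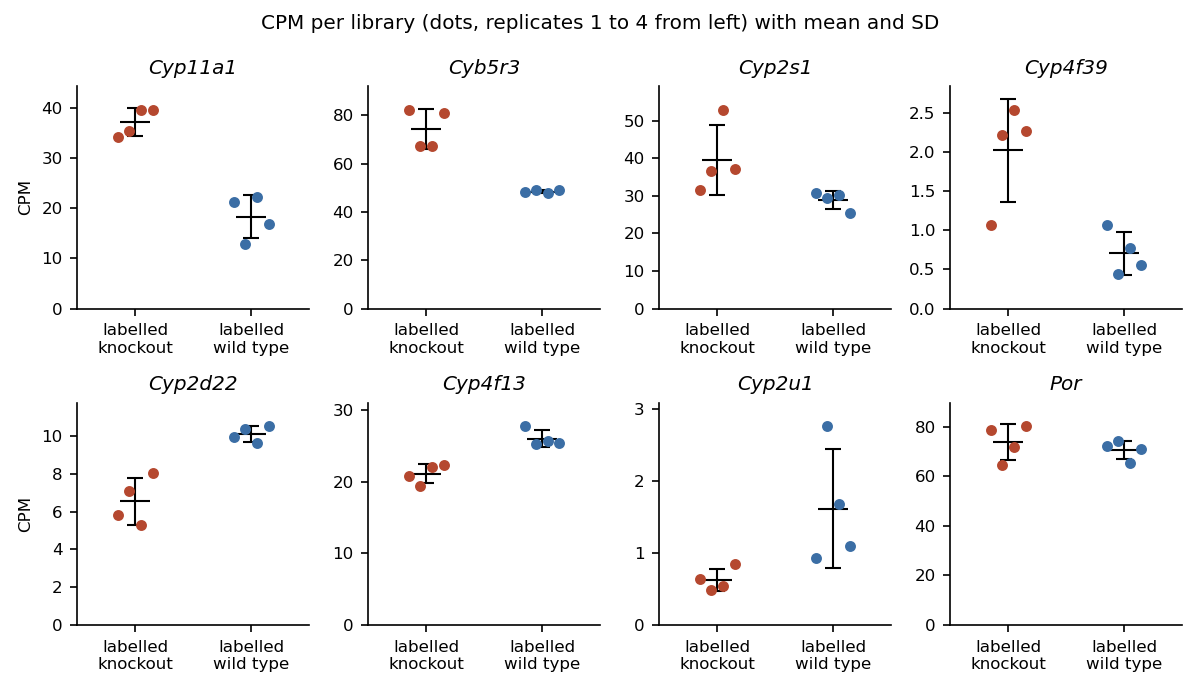
CPM (y axis, from 0, on a scale of its own in each panel) of the 7 members that passed the test and of Por, by label, with 1 dot per library and bars for mean and SD. Cyp11a1 and Cyb5r3 are higher in every library labelled knockout, Cyp2d22 lower in every one, and Por overlaps, at 73.8 ± 7.22 CPM under the knockout label and 70.6 ± 3.71 CPM under the wild type label.

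Cyp2d22 (ENSMUSG00000061740, GRCm38 chr15:82370527-82380260, minus strand) is the mouse gene often set beside human CYP2D6, a drug-oxidising enzyme. It had 5.80, 7.07, 5.30 and 8.04 CPM in knockout replicates 1 to 4 and 9.94, 10.4, 9.62 and 10.5 CPM in wild type replicates 1 to 4. Every library labelled knockout was below every library labelled wild type. In the fit this was -0.62 on the log2 scale (SE 0.15), with an edgeR adjusted p of 0.00307. It was the only expressed gene of 8 in its subfamily, and 1.87% of its 75-base windows also occur in relatives such as Cyp2d26, a trace gene with 11 counts over 8 libraries.

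Cyp2u1 (ENSMUSG00000027983, GRCm38 chr3:131288441-131303227, minus strand) encodes a hydroxylase of long-chain fatty acids. It had 9, 7, 7 and 13 counts in knockout replicates 1 to 4 and 13, 25, 24 and 16 counts in wild type replicates 1 to 4. After scaling, all libraries labelled knockout were lower, at 0.637, 0.485, 0.538 and 0.843 CPM, than those labelled wild type, at 0.923, 2.75, 1.67 and 1.10 CPM. The log2 fold change was -1.29 (SE 0.40, edgeR adjusted p = 0.0170). Without wild type replicate 2, the highest library, it was -0.97 and the call ended (edgeR adjusted p = 0.0919). Of the 75-base windows of Cyp2u1, 11.36% also occur in 4930534D22Rik, E030032P16Rik, Erc1, Kdelc2, Sass6 or Themis. Its few counts may therefore not be fully its own. B cell markers, given above, were lower in the same libraries as Cyp2d22, Cyp4f13 and Cyp2u1, and their part in these 3 results was not tested.

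The reductases that feed electrons to these enzymes were not alike. Cyb5r3 (ENSMUSG00000018042, GRCm38 chr15:83153494-83172592, minus strand) had 82.3, 67.1, 67.4 and 81.0 CPM in knockout replicates 1 to 4 and 48.1, 49.0, 47.8 and 48.9 CPM in wild type replicates 1 to 4. The libraries labelled wild type agreed closely and all lay below those labelled knockout, which fell into a higher pair (replicates 1 and 4) and a lower pair (replicates 2 and 3). Their log2 fold change was 0.62 (SE 0.080, edgeR adjusted p = 3.17e-06).

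Por (ENSMUSG00000005514, GRCm38 chr5:135670033-135735326, plus strand) had 78.8, 64.4, 71.9 and 80.1 CPM in knockout replicates 1 to 4 and 72.0, 74.2, 65.5 and 70.8 CPM in wild type replicates 1 to 4. The labels overlapped, and the log2 fold change of 0.065 (SE 0.077) did not pass (edgeR adjusted p = 0.560). Whether the change of Cyb5r3 differed from that of Por was not tested.

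Other electron partners were given by a list of 12 symbols, of which 9 were tested. Of these, 2 were higher under the knockout label, none was lower and 7 did not pass, with a median log2 fold change of 0.089, where 15.7% of all genes tested were higher and 14.6% lower. Cyb5a, the microsomal cytochrome b5 that Cyb5r3 reduces, was 183.3 ± 7.45 CPM in libraries labelled knockout and 135.1 ± 9.34 CPM in those labelled wild type (log2 fold change 0.44, edgeR adjusted p = 2.34e-05). Pgrmc2, a heme-binding membrane protein, was 54.6 ± 1.56 CPM under the knockout label and 40.3 ± 4.51 CPM under the wild type label (0.43, edgeR adjusted p = 0.000359). Cyb5b, the cytochrome b5 of the outer mitochondrial membrane, did not pass, with -0.0072 (edgeR adjusted p = 0.945).

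Heme synthesis, which supplies the P450 cofactor, had 9 of 9 listed genes tested, with none higher, 2 lower and 7 not passing under the knockout label (median log2 fold change -0.099), beside 15.7% of all genes tested that were higher and 14.6% that were lower. Alad, the second enzyme of the pathway, was 17.7 ± 2.22 CPM in libraries labelled knockout and 30.4 ± 0.851 CPM in those labelled wild type (-0.78, edgeR adjusted p = 2.77e-06). Alas1, the rate-limiting first enzyme, was 41.4 ± 3.65 CPM under the knockout label and 48.8 ± 1.34 CPM under the wild type label (-0.24, edgeR adjusted p = 0.0292). The call for Alas1 ended in 5 of the 8 fits that left out 1 library.

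Of 6 listed P450s of bile acid and oxysterol metabolism, 1 was expressed. This was Cyp39a1, which 7-alpha-hydroxylates 24-hydroxycholesterol, at 1.39 ± 0.235 CPM in libraries labelled knockout and 1.86 ± 0.683 CPM in those labelled wild type, and it did not pass (log2 fold change -0.42, SE 0.31, edgeR adjusted p = 0.331). Without wild type replicate 4, which had 41 counts against 17 to 20 in the other libraries of that label, the log2 fold change was -0.13 (edgeR adjusted p = 0.813). Cyp27a1, the sterol 27-hydroxylase, had 13 counts over 8 libraries, Cyp46a1, the cholesterol 24-hydroxylase, 6, Cyp7a1, the rate-limiting enzyme of bile acid synthesis, 4 and Cyp7b1, the oxysterol 7-alpha-hydroxylase, 2. The enzymes Ch25h and Hsd3b7, which make and break down oxysterols outside the P450 family, had 3 and 5 counts.

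Of 6 oxysterol-related genes tested from a list of 8, 1 was higher, 2 were lower and 3 did not pass under the knockout label (median log2 fold change -0.17), beside 15.7% higher and 14.6% lower among all genes tested. Abca1, the cholesterol exporter that oxysterols induce, was 7.75 ± 1.16 CPM in libraries labelled knockout and 21.3 ± 3.82 CPM in those labelled wild type (-1.44, edgeR adjusted p = 4.59e-08). Nr1h2, which encodes an oxysterol receptor, was 105.2 ± 9.08 CPM under the knockout label and 91.6 ± 2.54 CPM under the wild type label (0.20, edgeR adjusted p = 0.0355). Leaving out 1 library ended the call for Nr1h2 in 6 of 8 fits.

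Vitamin D enzymes were read at the edge of detection. Cyp2r1, a 25-hydroxylase, was expressed at 0.966 ± 0.181 CPM in libraries labelled knockout and 1.04 ± 0.301 CPM in those labelled wild type and did not pass (log2 fold change -0.12, SE 0.35, edgeR adjusted p = 0.832). Cyp27b1, which makes the active hormone, was trace, with 4, 4, 1 and 8 counts in knockout replicates 1 to 4 and 2, 3, 6 and 2 in wild type replicates 1 to 4. Cyp24a1, which breaks the hormone down, had 8 counts over 8 libraries.

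The CYP26 genes, which degrade retinoic acid, were all trace. Cyp26b1 had 7, 1, 0 and 9 counts in knockout replicates 1 to 4 and 6, 1, 1 and 5 in wild type replicates 1 to 4, Cyp26c1 had 16 counts over 8 libraries and Cyp26a1 had 14. Of 11 listed receptors and enzymes of the same pathways, 7 were tested, and Rarb, Aldh1a1, Aldh1a2 and Dhrs3 had too few counts. Of the 7, 2 were higher, 1 was lower and 4 did not pass under the knockout label (median log2 fold change 0.055), where 15.7% of all genes tested were higher and 14.6% lower.

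Rxra, the partner receptor of both pathways, was 30.8 ± 4.51 CPM in libraries labelled knockout and 23.4 ± 2.09 CPM in those labelled wild type (log2 fold change 0.40, edgeR adjusted p = 0.00601). Rdh10, which oxidises retinol, was 13.6 ± 1.60 CPM under the knockout label and 10.2 ± 0.432 CPM under the wild type label (0.41, edgeR adjusted p = 0.0134), a call that ended without knockout replicate 4 (0.36, edgeR adjusted p = 0.0510). Vdr, the vitamin D receptor, was lower, at 7.16 ± 0.433 CPM under the knockout label and 10.2 ± 1.64 CPM under the wild type label (-0.51, edgeR adjusted p = 0.00977).

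Cyp20a1 (ENSMUSG00000049439, GRCm38 chr1:60343323-60388060, plus strand), the highest P450 of the set by mean TPM, had 19.5, 18.03, 16.8 and 15.6 CPM in knockout replicates 1 to 4 and 17.4, 17.4, 17.98 and 16.6 CPM in wild type replicates 1 to 4. The labels overlapped, and the log2 fold change of 0.010 (SE 0.11) did not pass (edgeR adjusted p = 0.955). Cyp2t4 did not pass either, with 0.66 (SE 0.41, edgeR adjusted p = 0.243) and 77 counts over 8 libraries. Its row overlaps the opposite-strand gene Egln2, which had 9001 counts, by 11 bases.

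Of 8 listed receptors and epoxide hydrolases, Ephx1, the microsomal epoxide hydrolase, and Ephx4 were tested, with log2 fold changes of 0.20 (edgeR adjusted p = 0.106) and 0.28 (edgeR adjusted p = 0.454). Neither passed with all 8 libraries, and Ephx1 passed as higher without knockout replicate 2 (0.25, edgeR adjusted p = 0.0477). Tbxas1 and Ptgis, P450s of prostanoid synthesis that carry no Cyp number, were trace, with 25 and 7 counts over 8 libraries.

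Among the 38 trace members, 12 had more than 10 counts over 8 libraries and 26 had 10 or fewer, 12 of them at most 3. The most abundant was Cyp4f18 (chromosome 8), a leukotriene B4 hydroxylase known from myeloid cells of the mouse. It had 3, 8, 6 and 3 counts in knockout replicates 1 to 4 and 5, 7, 14 and 20 in wild type replicates 1 to 4. With no filter, its log2 fold change was -1.25 and did not pass (edgeR adjusted p = 0.139). It entered the tested genes and passed as lower without wild type replicate 1 (-1.57, edgeR adjusted p = 0.0208) and without knockout replicate 2 (-1.60, edgeR adjusted p = 0.0399). Without knockout replicate 1, 3 or 4 it entered as well and did not pass (edgeR adjusted p = 0.141, 0.0678 and 0.158). Nor did it pass in DESeq2 on all 8 libraries (DESeq2 adjusted p = 0.136). Macrophage and monocyte markers summed to 5.16 to 9.38 CPM in the libraries labelled knockout and 11.8 to 16.96 CPM in those labelled wild type, with C1qa at 0. Most of that sum was Cd68, at 6.51 CPM under the knockout label and 12.3 CPM under the wild type label, the only one of 10 that could be tested. The sum of 8 neutrophil markers was 20.9 to 38.3 CPM under the knockout label and 8.04 to 13.9 CPM under the wild type label. Nearly all of it was Ly6g, at 29.9 CPM under the knockout label and 11.04 CPM under the wild type label, while Csf3r had 0 CPM under the knockout label and 0.203 CPM under the wild type label, and S100a9 and Retnlg were at 0 in all libraries. Their part in the counts of Cyp4f18 was not tested.

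Next to Cyp4f18, Cyp26b1, Cyp27b1, Cyp26c1, Cyp26a1, Cyp17a1 and Cyp27a1, the trace genes with more than 10 counts were Cyp4a29 with 15, Cyp3a13 with 12, and Cyp2ab1, Cyp2b9 and Cyp2d26 with 11 each. Cyp3a13 had 2, 0, 3 and 6 counts in knockout replicates 1 to 4 and 0, 0, 0 and 1 in wild type replicates 1 to 4. No trace member passed edgeR's test when the filter was dropped, while 5 had an unadjusted p under 0.05, namely Cyp4f18, Cyp3a13, Cyp2c55, Cyp2c66 and Cyp4f14. Besides Cyp4f18, no trace member passed in an alternative fit that held it. Fits on all 8 libraries with the same filter, limma-voom among them, held no trace member and could not call one.

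Of the 38 trace members, 3 (7.89%) were read in libraries labelled knockout alone and 12 (31.6%) in libraries labelled wild type alone. Over all 5655 protein-coding trace rows these shares were 11.6% and 17.9%, in the same order. Per library, 15, 14, 12 and 14 trace members were detected in knockout replicates 1 to 4 and 10, 21, 22 and 20 in wild type replicates 1 to 4. Wild type replicate 1 had fewest of all, and wild type replicates 2 to 4 had more than any library labelled knockout, although wild type replicate 2 was the shallowest. All protein-coding trace rows showed a like pattern in part, with 48.3, 52.3, 52.0 and 53.7% detected in knockout replicates 1 to 4 and 43.6, 52.6, 63.8 and 62.6% in wild type replicates 1 to 4. The part that other cells or low-level reads took in these counts was not tested.

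**Figure D5:**
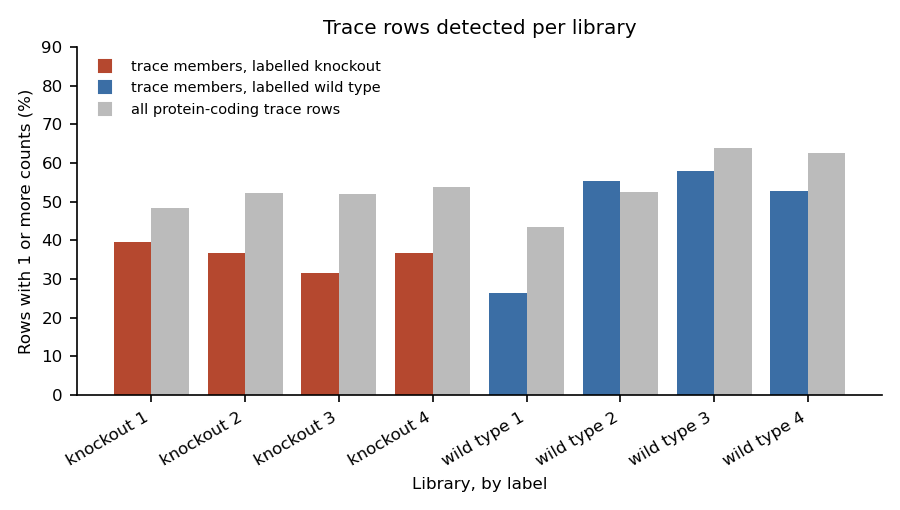
Share of rows with at least 1 count in each library (y axis, percent; x axis, libraries by label), for the 38 trace members and for all 5655 protein-coding trace rows (grey). The libraries labelled knockout detect 31.6 to 39.5% of the trace members, wild type replicates 2 to 4 detect 52.6 to 57.9% and wild type replicate 1 detects 26.3%.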

How the data were processed

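RNA sequencing counts of 8 mouse CD4 T cell libraries were analysed, 4 labelled Cyp1b1 knockout and 4 labelled wild type. The authors deposited raw counts per gene with Ensembl identifiers, symbols, lengths and positions, with no normalization. The tool fastp, with no version, is named per the submitters' processing notes. Aligner, counter, strand use, annotation and build were not given in the sources used here, so overlapping and antisense genes cannot be told apart. All 99 member identifiers were found in GENCODE M21 (GRCm38), 90 at identical coordinates, and positions are given as GRCm38.

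Counts were tested in R 4.3.3 with edgeR 4.0.16 (TMM, filterByExpr with minimum count 10 and minimum total 15, robust quasi-likelihood F-test on genotype alone, two-sided, Benjamini-Hochberg over all 14428 genes tested). SE was derived by dividing the log2 fold change by the root of F. CPM of genes and summed marker CPM are TMM-scaled, and TPM were computed from counts and deposited lengths. The steps were tested on simulated data. Alternatives included limma-voom (limma 3.58.1) and DESeq2 1.42.0.

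Members and lists were chosen with earlier results of these data known. All expressed members are named with values, those that passed and the 5 highest by TPM with every library. Of trace members those with the most counts are named (12, since 3 tied at 11), and from each list up to 3 genes that passed, by smallest p, or 2 tested genes where none did. A gene named by this rule is not reported here. Genes named beyond this as partners of a member or list, and trace genes named by role, were chosen after their values were seen. The former were Fdx1, Fdxr, Cyb5b, Cyb5r2, Gm17322, Gm26707, Egln2, Nr1i2, Nr1i3, Hnf4a, Ppara, Ch25h, Hsd3b7, Rarb, Aldh1a1, Aldh1a2, Dhrs3, Tbxas1 and Ptgis. Replicate numbers were not used to pair libraries. Promoter sequences are from RefSeq. Protein sequences were not used here.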

Additional observations from a re-analysis of the deposited data

Results flagged for a closer look

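Single libraries stood apart in 5 of 56 sets of 4 libraries, where chance sets apart about 1 set in 20, and no cause was tested. Cyp4f13 was 27.69 CPM in wild type replicate 1, above the other libraries of that label at 25.23 to 25.64 CPM. Cyp4v3 was 9.76 CPM in knockout replicate 1, below the others at 10.99 to 11.23 CPM. Cyb5a was 172.1 CPM in knockout replicate 1, below the others at 186.5 to 187.6 CPM. Pgrmc2 was 56.96 CPM in knockout replicate 3, above the others at 53.68 to 54.16 CPM. Nr1h2 was 87.8 CPM in wild type replicate 2, below the others at 92.54 to 93.3 CPM.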

How the results depend on the processing

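Cyp11a1, Cyb5r3, Cyp2d22, Cyp2s1 and Cyp4f39 passed the test in the same direction in all 18 alternative fits (other scalings, filters, tools, protein-coding genes alone, each library left out, and 2 subsets of libraries that an earlier look at these data had set apart). Log2 fold changes ran from 0.88 to 1.10 for Cyp11a1, 0.48 to 0.76 for Cyb5r3, -0.73 to -0.53 for Cyp2d22, 0.28 to 0.67 for Cyp2s1 and 1.33 to 1.97 for Cyp4f39. Cyp4f13 lost its call in 4 of 18 fits (adjusted p 0.0506 without wild type replicate 1, 0.0867 with no filter, 0.0677 and 0.114 in the subsets), and Cyp2u1 in 2 of 17 (0.0919 without wild type replicate 2, 0.0541 in 1 subset). Members passing as lower numbered 2 to 4 and as higher 4, or 5 in 1 subset. Por was -0.034 with knockout replicates 2 and 3 set against wild type replicates 2 to 4, and 0.19 (adjusted p = 0.0478) with knockout replicates 1 and 4 in their place, where Cyp4f17 was 0.31. The cause was not tested. Cyp20a1 and Cyp2r1 crossed 0 within their SE (-0.044 to 0.067 and -0.26 to 0.095). Rxra lost its call in 1 subset (adjusted p = 0.0660). Cyp4f18 passed as lower in 1 subset (-2.33, adjusted p = 0.0102) and did not pass in the other (-1.04, adjusted p = 0.203). Same-numbered libraries deviated together weakly (correlations 0.0507 to 0.0906, none over 0.1, and replicates 2 and 4 correlated more with another number). A replicate block gave 4936 genes against 4380, the same 4 and 3 members counted, and changed no other call named here. Without 1 library, 3559 to 4679 genes passed, 15 to 16 members were expressed and 46 to 50 silent, and over all libraries 58 had at most 3 counts. With at least 1 CPM in 4 libraries, 13 members were expressed. Low counts limit Cyp4f39, Cyp2u1, Cyp2t4 and all trace genes, and no alternative recovers depth for them.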

Other observations

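Beside the coding genes, the table held 31 P450-named rows of other biotypes, mostly pseudogenes, of which 8 had any count. The most abundant was Cyp4f41-ps, with 12, 7, 14 and 14 counts in knockout replicates 1 to 4, against 36, 3, 26 and 7 in wild type replicates 1 to 4. It was the only one tested and did not pass (log2 fold change -0.70, SE 0.48, edgeR adjusted p = 0.286). Cyp4b1-ps2 had 16 counts over 8 libraries, while the coding gene Cyp4b1 had none.

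Cyb5r2, another cytochrome b5 reductase, was below the filter and outside the tested genes. It had 7, 14, 4 and 5 counts in knockout replicates 1 to 4, against 1, 0, 0 and 0 in wild type replicates 1 to 4, and with no filter its edgeR adjusted p was 0.00186. Aldh1a1, which oxidises retinal, had 0, 0, 1 and 1 counts in knockout replicates 1 to 4 and 0, 3, 8 and 4 in wild type replicates 1 to 4, and it did not pass with no filter (edgeR adjusted p = 0.142).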
